A study of Homo sapiens with 6 samples.

Results

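The genes described here are 45 that act in mitosis, on the spindle or in cytokinesis. They comprise the kinases, cyclins and phosphatases of mitotic entry, chromosome structure and kinetochore genes, the spindle checkpoint, the chromosomal passenger complex and the machinery of cell division, together with the proliferation marker MKI67. The rule that defines them uses function and gene symbol and no measured value. They were read by symbol from the 58735 gene rows of the count table. All 45 reached at least 10 counts in at least 3 libraries and were tested together with 15078 genes in all. RNA was sequenced from Meg-01 cells, an established human megakaryoblastic leukaemia cell line. There were 3 libraries of untreated control cells and 3 libraries of cells given 500 µM sodium propionate (C3), a short-chain fatty acid of bacterial fermentation. By the labels treatment lasted 48 h, and the methods also name a shorter incubation. The study describes the 3 libraries of a group as technical replicates of 1 cell line, so p-values measure only the spread between these libraries.

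Mitosis starts when cyclin B and CDK1 phosphorylate the structures that hold the interphase nucleus together. Condensins and topoisomerase II then compact the chromosomes, kinetochores attach them to spindle microtubules, and a checkpoint holds back anaphase until every kinetochore is attached. Anaphase begins when the anaphase-promoting complex marks securin and cyclin B for destruction, after which the central spindle directs a contractile ring between the daughter cells. Megakaryocytes, the precursors of platelets, become polyploid by endomitosis, in which late anaphase and cytokinesis are left out, and loss of RhoA activation at the midzone through ECT2 is one known part of that switch. The RNA of most of these genes peaks in G2 and M phase. In RNA from a whole culture, fewer cells in a phase and less RNA per cell cannot be told apart.

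The libraries held between 16159449 and 22821722 counts. Together the mitosis genes made up 0.440% to 0.475% of the counts of a library. Of 15 megakaryocyte markers, 13 were tested. Among them ITGB3 was higher in C3 cells (log2 fold change 0.34) and GP1BA (-0.49), NFE2 (-0.38) and TUBB1 (-1.36) were lower at an adjusted p below 0.05 in edgeR. The αIIb integrin gene ITGA2B had 12904 normalised counts in control and 12376 in C3 cells, while PF4 and GP1BB were at 0 counts in every library. The summed marker level was between 1586 and 1667 CPM (counts relative to the library total) in control and between 1504 and 1629 CPM in C3 libraries. Of 10 T and B cell markers 4 were tested, with sums of 5.63 to 6.98 CPM in control and 5.76 to 7.81 CPM in C3 libraries, and MS4A1 was at 0 counts. Of 10 monocyte and granulocyte markers 3 were tested, with sums of 48.4 to 50.8 CPM in control and 38.8 to 40.1 CPM in C3 libraries, and FCGR3A and CD163 were at 0 counts. LYZ was lower among them, with a log2 fold change of -0.51 (adjusted p = 4.7e-05 in edgeR). Of 11 fibroblast, endothelial and epithelial markers 7 were tested, with sums of 99.8 to 115 CPM in control and 83.5 to 98.2 CPM in C3 libraries, and KRT19 was at 0 counts. In this last list COL1A1 and CDH5 were higher and KRT18, which holds most of the sum, was lower, and the median log2 fold change was 0.32. The part of these markers in the results below was not tested.

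Calls among the mitosis genes fell in both directions after C3, with a share of higher genes near that of all genes. MKI67, the motor CENPE, the kinetochore protein CENPF and the condensin subunit SMC4 were higher by 1.33-fold to 1.63-fold, while CCNA2, CCNB1, CCNB2, PLK1, CDC25B, NCAPD2, NDC80, CDCA8 and KIF20A were lower by 11.8% to 17.7%. At an adjusted p-value below 0.05 in the quasi-likelihood test of edgeR, with Benjamini-Hochberg adjustment across all genes tested, 7 of the 45 were higher (15.6%), against 11.0% of all genes. In the same test 9 were lower (20.0%), against 8.77% of all genes, and 29 did not pass. The 9 became 2 without C3 replicate 3, where 591 of all 14701 genes were lower. With library size alone as scaling 5 were lower, beside 609 of all 15078 genes. Under the stricter gates of the study, an adjusted p below 0.01 together with a fold change above 1.3, 4 were higher (8.89%), against 5.05% of all genes. None was lower under these gates in edgeR, DESeq2 or limma-voom, against 1.47% of all genes in edgeR, whereas at an unadjusted p below 0.05 in edgeR 10 were lower (22.2%), against 15.3% of all genes, and 8 were higher (17.8%), against 16.8%. The falls were too small for the fold gate, since the largest was to 0.823-fold. The median log2 fold change of the 45 was -0.05, beside 0.0021 for all genes tested.

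**Figure D1:**
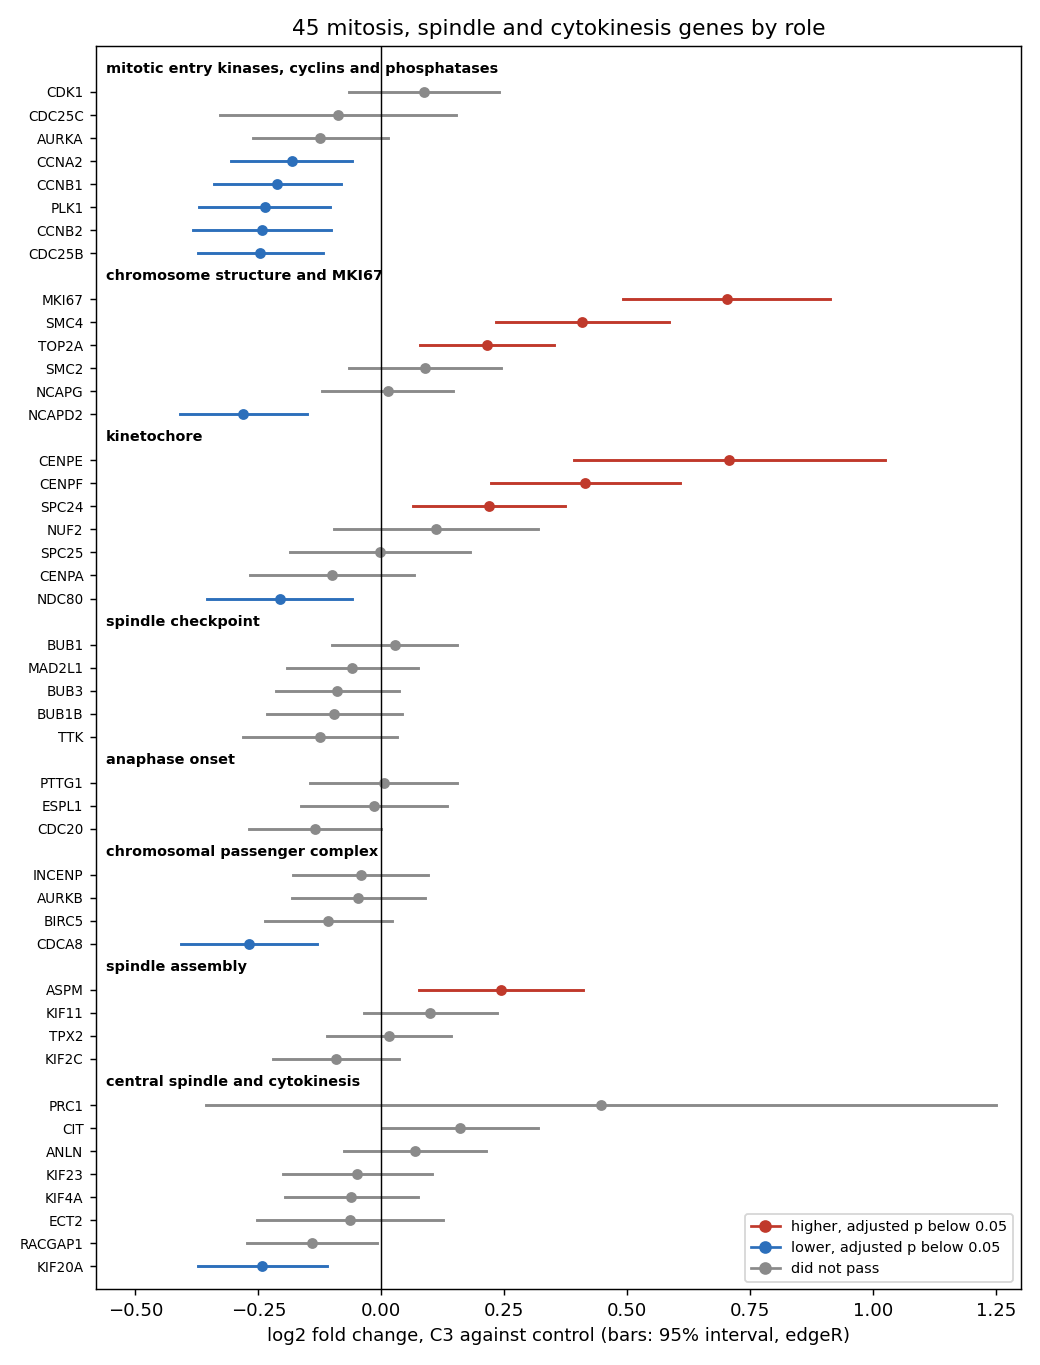
Log2 fold change of each of the 45 genes, C3 against control, with its 95% interval from the edgeR fit, in 8 groups by role. Red and blue points had an adjusted p below 0.05 (higher and lower) and grey points did not. Blue points include 5 of the 8 mitotic entry genes. Red points include 3 of the 6 chromosome structure and 3 of the 7 kinetochore genes. The other blue points are NCAPD2, NDC80, CDCA8 and KIF20A, and the other red point is ASPM. Of all genes tested, 11.0% were higher and 8.77% lower at this threshold. Roles were not tested against each other.

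Separation of the libraries leaned to the lower side. Every C3 library was above every control library in 4 genes (8.89%), against 17.5% of all genes, and every C3 library was below every control library in 12 genes (26.7%), against 16.9% of all genes. In the other 29 genes the groups overlapped. The median deviation of the 45 genes from the control mean on the log2 scale was -0.01, -0.01 and 0.03 in the control libraries and -0.06, -0.03 and -0.04 in C3 replicates 1, 2 and 3.

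Among the 8 genes that drive mitotic entry, 5 fell (62.5%, against 8.77% of all genes) and none rose (against 11.0%). Their median log2 fold change was -0.20. CDK1 itself, the kinase that all mitotic cyclins activate, was not among those that fell. It had 1353, 1376 and 1595 normalised counts in the control libraries and 1376, 1609 and 1593 in the C3 libraries. The control and C3 ranges overlapped (log2 fold change 0.09, 95% interval -0.07 to 0.24, adjusted p = 0.46). CCNB1, which encodes the cyclin B1 partner of CDK1, had 3595, 3489 and 3934 normalised counts in control and 3148, 3232 and 3130 in C3 libraries. All C3 libraries were below all control libraries, and CCNB1 fell by 13.6% (log2 fold change -0.21, SE 0.063, adjusted p = 0.018). CCNB2, the cyclin B2 gene, had 1338, 1372 and 1499 counts in control and 1254, 1178 and 1128 in C3 libraries. The groups did not overlap, and CCNB2 fell by 15.4% (log2 fold change -0.24, SE 0.068, adjusted p = 0.013).

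PLK1, the polo-like kinase that acts from mitotic entry to cytokinesis, had 7156, 7198 and 6529 normalised counts in control and 6293, 5709 and 5717 in C3 libraries. C3 replicate 1 was the nearest to the control range without reaching it, and PLK1 fell by 15.2% (log2 fold change -0.24, SE 0.065, adjusted p = 0.010). CDC25B, a phosphatase that removes inhibitory phosphates from CDK1, had 2048, 2044 and 1978 counts in control and 1754, 1630 and 1734 in C3 libraries. The gap between the groups was wider than the spread within either, and CDC25B fell by 15.7% (log2 fold change -0.25, SE 0.062, adjusted p = 0.0059). CCNA2, the cyclin A2 gene, went from 3209 ± 58.9 to 2828 ± 42.2 (mean ± SD, n = 3 libraries each) and also passed (log2 fold change -0.18, adjusted p = 0.032 in edgeR). CDC25C and the kinase AURKA did not pass, with log2 fold changes of -0.09 and -0.12.

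The call of CDC25B held without any 1 library, but those of the other 4 did not. CCNB1 and CCNB2 no longer passed without control replicate 3 (log2 fold changes -0.16 and -0.19, adjusted p = 0.078 and 0.060) or without C3 replicate 3 (-0.20 each, adjusted p = 0.098 and 0.11), PLK1 no longer passed without control replicate 1 or 2 or C3 replicate 2 or 3 (-0.21 to -0.20, adjusted p = 0.054 to 0.088), and CCNA2 without any library other than C3 replicate 1 (-0.18 to -0.17, adjusted p = 0.058 to 0.148).

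**Figure D2:**
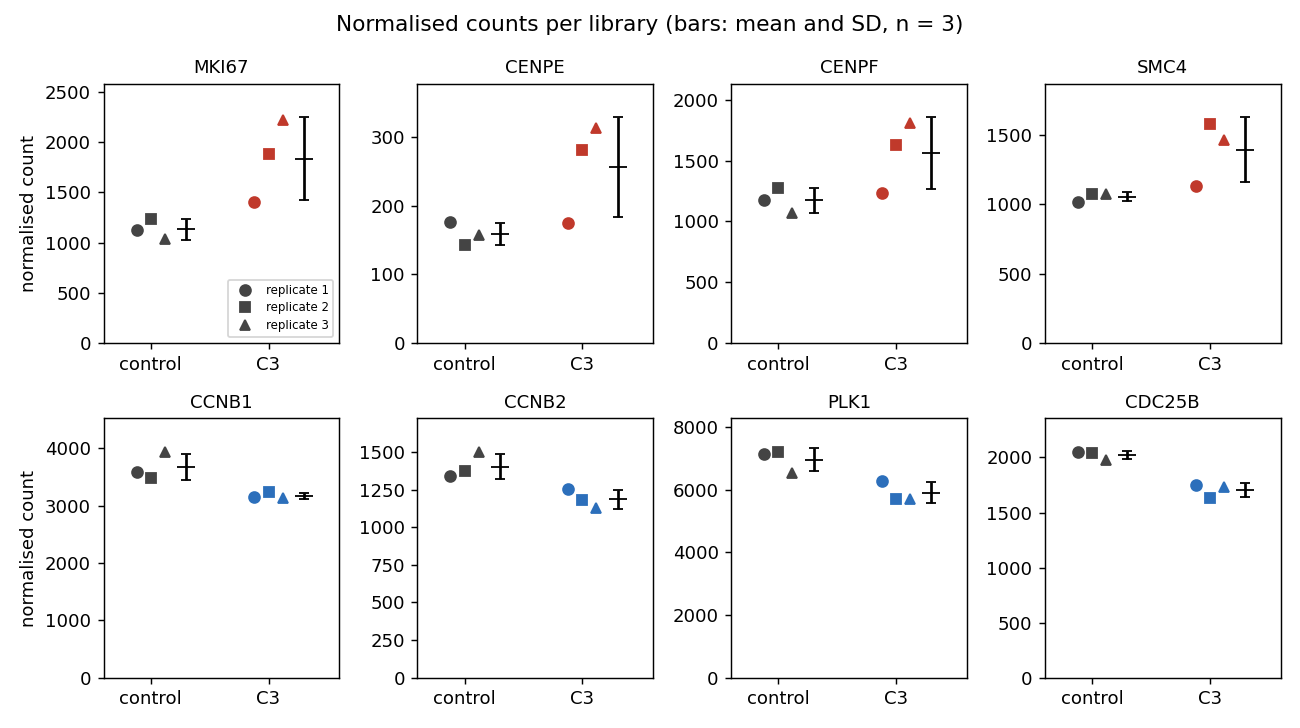
Normalised counts of 8 genes in each of the 6 libraries, with the mean and SD of each group (n = 3 libraries). The marker shape gives the replicate number, which was not treated as a pairing across the groups. In the upper row C3 replicate 1 lies close to or inside the control range (174 counts for CENPE, against 143 to 175 in control), and in the lower row all C3 libraries lie below all control libraries.

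Of the 6 genes of chromosome structure, 3 rose (50%, against 11.0% of all genes) and 1 fell (16.7%, against 8.77%). Their median log2 fold change was 0.15. MKI67, the Ki-67 protein that coats mitotic chromosomes and is widely used to mark proliferating cells, had 1123, 1237 and 1034 normalised counts in control and 1403, 1879 and 2221 in C3 libraries. All C3 libraries were higher than all control libraries, with a wide spread in C3, and MKI67 was 1.63-fold higher (log2 fold change 0.70, SE 0.10, adjusted p = 2.1e-05). SMC4, an ATPase subunit shared by condensins I and II, had 1017, 1071 and 1076 counts in control and 1136, 1583 and 1467 in C3 libraries. The groups did not overlap, and SMC4 was 1.33-fold higher (log2 fold change 0.41, SE 0.086, adjusted p = 0.0012). NCAPD2, a regulatory subunit of condensin I, moved the other way, with 4681, 4714 and 4367 counts in control and 3960, 3597 and 3774 in C3 libraries. Its groups did not overlap either, and NCAPD2 fell by 17.7%, the largest fall among the 45 genes (log2 fold change -0.28, SE 0.063, adjusted p = 0.0022).

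TOP2A, the topoisomerase that untangles sister chromatids, went from 6596 ± 115 to 7650 ± 642 normalised counts (mean ± SD, n = 3 libraries each; log2 fold change 0.21, adjusted p = 0.022 in edgeR). TOP2A no longer passed without control replicate 2, C3 replicate 2 or C3 replicate 3 (log2 fold changes 0.17 to 0.21, adjusted p = 0.11 to 0.128). SMC2, the ATPase partner of SMC4, and NCAPG, another condensin I subunit, did not pass, with log2 fold changes of 0.09 and 0.01. Without C3 replicate 1 SMC2 passed (0.18, adjusted p = 0.029). Of the exon bases of SMC4, 22.0% overlap genes on the other strand, as do 33.7% of those of NCAPG, 12.8% of those of PLK1 and 5.92% of those of NCAPD2, and the counting's use of strand was not stated.

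Of the 7 kinetochore genes, 3 rose (42.9%, against 11.0% of all genes) and 1 fell (14.3%, against 8.77%). Their median log2 fold change was 0.11. CENPE, a kinesin that carries chromosomes to the spindle equator, had 175, 143 and 156 normalised counts in control and 174, 280 and 313 in C3 libraries. C3 replicate 1 lay within the control range and the other two lay above it, and CENPE was 1.63-fold higher (log2 fold change 0.71, SE 0.15, adjusted p = 0.0017). CENPF, a large protein of the outer kinetochore, had 1175, 1274 and 1071 counts in control and 1236, 1631 and 1812 in C3 libraries. Again only C3 replicate 1 lay within the control range, and CENPF was 1.33-fold higher (log2 fold change 0.42, SE 0.094, adjusted p = 0.0024).

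SPC24, a subunit of the NDC80 complex that holds microtubule ends, had 615, 597 and 589 normalised counts in control and 700, 657 and 737 in C3 libraries. All C3 libraries were higher, and SPC24 was 1.16-fold higher (log2 fold change 0.22, SE 0.075, adjusted p = 0.041). NDC80, which lends its name to that complex, went from 989 ± 62.7 to 855 ± 41.7 counts (mean ± SD, n = 3 libraries each) and fell by 13.3% (adjusted p = 0.043 in edgeR). The 2 other subunits, NUF2 and SPC25, did not pass, with log2 fold changes of 0.11 and -0.003, nor did CENPA, the histone variant of centromeres, at -0.10. Both calls near the threshold depended on single libraries. SPC24 no longer passed without any 1 control library or without C3 replicate 3 (log2 fold changes 0.18 to 0.25, adjusted p = 0.058 to 0.223), and NDC80 no longer passed without any 1 of the 6 libraries (-0.24 to -0.16, adjusted p = 0.054 to 0.156).

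Some pairs of genes were also read as ratios inside each library, which do not depend on the scaling of libraries. The 4 given here pair genes already seen to differ, so they are a description and carry no test. SMC4 to NCAPD2 was -2.20, -2.14 and -2.02 on the log2 scale in control and -1.80, -1.18 and -1.36 in C3 libraries, a difference of 0.67. SPC24 to NDC80 was -0.60, -0.71 and -0.84 in control and -0.21, -0.39 and -0.28 in C3 libraries, a difference of 0.43. CDCA8 to AURKB was -0.53, -0.55 and -0.46 in control and -0.72, -0.63 and -0.85 in C3 libraries, a difference of -0.22. Outside a complex, MKI67 to CCNB1, both in use as proliferation markers, was -1.68, -1.50 and -1.93 in control and -1.17, -0.78 and -0.49 in C3 libraries, a difference of 0.89. Every C3 library was above every control library in 3 of these ratios and below in CDCA8 to AURKB.

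None of the 5 spindle checkpoint genes passed, and their median log2 fold change was -0.09. TTK, the kinase at the head of the checkpoint, had 855, 990 and 963 normalised counts in control and 780, 895 and 891 in C3 libraries (log2 fold change -0.13, 95% interval -0.28 to 0.03). BUB3 had 3482, 3504 and 3721 in control and 3384, 3295 and 3382 in C3 libraries (-0.09, 95% interval -0.21 to 0.04). Both genes encode proteins at unattached kinetochores, and only BUB3 had all C3 libraries below all control libraries. BUB1B, which encodes the BubR1 subunit of the inhibitor of anaphase, had 1416, 1348 and 1476 in control and 1241, 1380 and 1342 in C3 libraries (-0.10, 95% interval -0.23 to 0.04), with overlap of the groups. BUB1 and MAD2L1 had log2 fold changes of 0.03 and -0.06.

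The 3 genes of anaphase onset did not pass either, with a median of -0.01. CDC20, the activator of the anaphase-promoting complex, had 3503, 3487 and 3302 normalised counts in control and 3422, 2961 and 2997 in C3 libraries. C3 replicate 1 lay within the control range and the other two below it (log2 fold change -0.13, adjusted p = 0.16), and without C3 replicate 1 the gene passed (log2 fold change -0.20, adjusted p = 0.0093). PTTG1, which encodes securin, had 1265, 1229 and 1483 counts in control and 1313, 1398 and 1274 in C3 libraries (0.00466, 95% interval -0.14 to 0.15). ESPL1, which encodes separase, the protease that securin holds in check, had 1355, 1268 and 1150 counts in control and 1301, 1152 and 1287 in C3 libraries (-0.0145, 95% interval -0.16 to 0.13). In both the groups overlapped.

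The chromosomal passenger complex consists of the kinase AURKB and of INCENP, survivin (BIRC5) and borealin (CDCA8). Of these 4 genes 1 was lower (25%, against 8.77% of all genes) and none was higher (against 11.0%). CDCA8 had 2290, 2230 and 2391 normalised counts in control and 2098, 1876 and 1766 in C3 libraries. All C3 libraries were below all control libraries, and CDCA8 fell by 17.0% (log2 fold change -0.27, SE 0.067, adjusted p = 0.0055), a call lost without C3 replicate 3 (-0.21, adjusted p = 0.080). AURKB had 3300, 3273 and 3286 counts in control, a narrow range, and 3462, 2897 and 3190 in C3 libraries on both sides of it (-0.05, 95% interval -0.18 to 0.09). BIRC5 had 3363, 3209 and 3568 in control and 3278, 3094 and 3038 in C3 libraries (-0.11, 95% interval -0.24 to 0.02), and INCENP had a log2 fold change of -0.04.

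Spindle assembly genes numbered 4, of which 1 rose (25%, against 11.0% of all genes) and none fell (against 8.77%). ASPM, a protein of spindle poles, had 746, 828 and 812 normalised counts in control and 807, 992 and 1015 in C3 libraries. C3 replicate 1 lay within the control range, and ASPM was 1.18-fold higher (log2 fold change 0.24, SE 0.081, adjusted p = 0.034). This call was lost without any 1 control library and without C3 replicate 2 or 3 (0.19 to 0.27, adjusted p = 0.053 to 0.216). KIF11, the motor that pushes spindle poles apart, had 1606, 1618 and 1723 in control and 1637, 1851 and 1805 in C3 libraries (0.10, 95% interval -0.04 to 0.23). KIF2C, a microtubule depolymerase that corrects wrong attachments, had 1825, 1862 and 1778 in control and 1777, 1698 and 1654 in C3 libraries (-0.09, 95% interval -0.22 to 0.04). The groups overlapped for KIF11 and lay just apart for KIF2C, and TPX2, which starts microtubule growth at chromosomes, had a log2 fold change of 0.02.

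The 8 genes of the central spindle and cytokinesis had a median of -0.05, and 1 of them fell (12.5%, against 8.77% of all genes). KIF20A, a kinesin of the central spindle, had 2538, 2650 and 2572 normalised counts in control and 2350, 2075 and 2141 in C3 libraries. The groups did not overlap, and KIF20A fell by 15.4% (log2 fold change -0.24, SE 0.064, adjusted p = 0.0082), a call lost without control replicate 2, C3 replicate 2 or C3 replicate 3 (-0.22 to -0.20, adjusted p = 0.059 to 0.063). ECT2, the RhoA activator of the cleavage furrow, had 601, 540 and 666 counts in control and 488, 617 and 614 in C3 libraries. The 2 groups overlapped, and the interval of the log2 fold change ran from -0.25 to 0.13 around -0.06. RACGAP1, which recruits ECT2 to the midzone, had 1438, 1399 and 1390 in control and 1291, 1330 and 1216 in C3 libraries. All of its C3 libraries were lower without passing after adjustment (log2 fold change -0.14, adjusted p = 0.13).

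ANLN, the scaffold anillin of the contractile ring, had 929, 986 and 978 normalised counts in control and 937, 1069 and 1022 in C3 libraries (log2 fold change 0.07, 95% interval -0.08 to 0.21). CIT, a kinase of the midbody, had 705, 641 and 591 in control and 735, 701 and 732 in C3 libraries (0.16, adjusted p = 0.15), and passed only with library size alone as scaling (0.23, adjusted p = 0.046). Both pairs of groups overlapped, and KIF23 and KIF4A, motors of the midzone, had log2 fold changes of -0.05 and -0.06. PRC1, which bundles midzone microtubules, had only 9 to 22 raw counts per library. Normalised, these were 12.7, 9.55 and 11.9 in control and 17.1, 12.4 and 17.2 in C3 libraries, with overlap of the groups. Of its exon bases 57.6% are shared with a readthrough gene on the same strand (20 to 55 counts) and 34.3% lie opposite an antisense gene. Its log2 fold change of 0.45 (95% interval -0.36 to 1.25) therefore describes few reads. Leaving out PRC1, the 28 genes that did not pass had log2 fold changes between -0.14 and 0.16, and their 95% intervals stayed between -0.33 and 0.32.

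**Figure D3:**
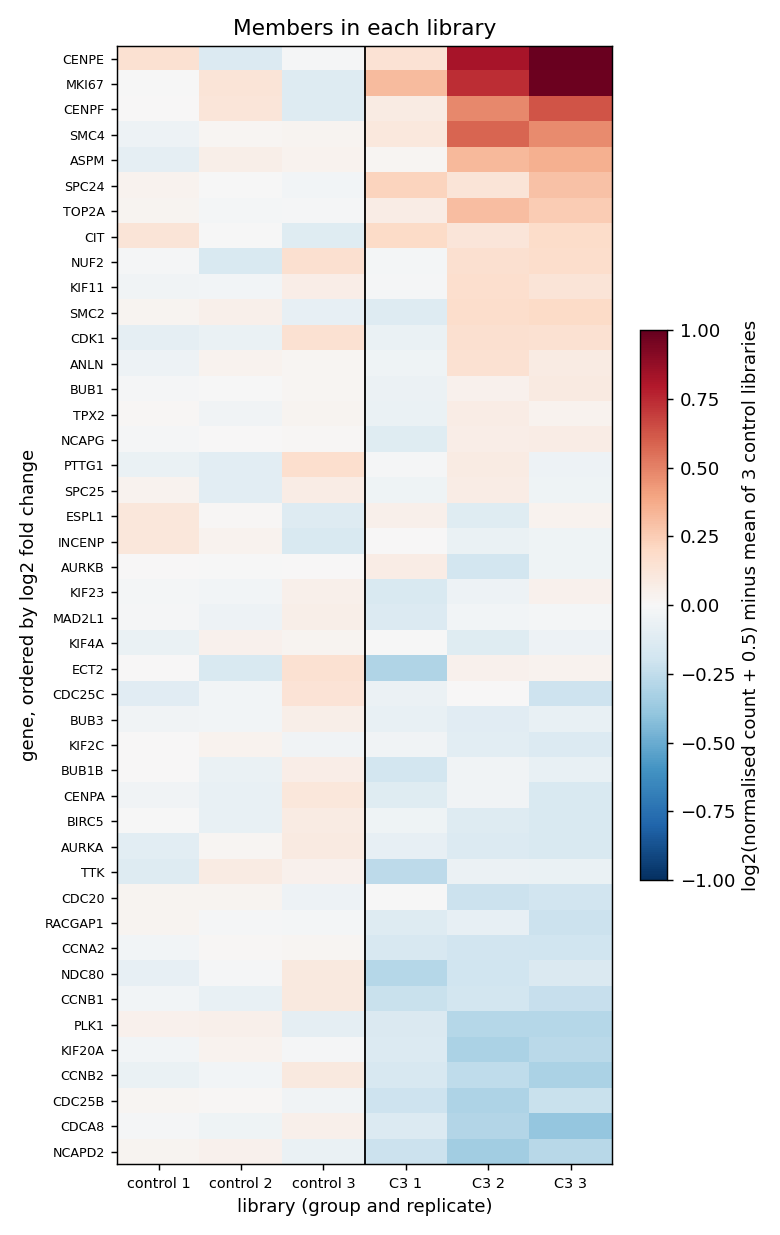
Deviation of each gene from its control mean, on the log2 scale of normalised counts plus 0.5, in the 6 libraries. PRC1 (9 to 22 counts) is left out and genes are ordered by log2 fold change. C3 replicate 1 is paler than C3 replicates 2 and 3 at the upper end, with the CENPE, CENPF and ASPM values inside the control range.

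Of the 7 genes that rose, 6 had their lowest C3 value in C3 replicate 1, and SPC24 had it in C3 replicate 2. By role, counting also genes that did not pass, the kinetochore genes deviated from the control mean by a median of -0.02 in C3 replicate 1 but by 0.13 and 0.18 in C3 replicates 2 and 3, and the chromosome structure genes by -0.02, 0.24 and 0.22. The median of the mitotic entry genes was low in every C3 library, at -0.15, -0.19 and -0.21. Among these genes CDK1 lay above its control mean in C3 replicates 2 and 3, by 0.16 and 0.15. Without C3 replicate 1 the log2 fold changes were 0.86 for MKI67, 0.91 for CENPE, 0.56 for CENPF and 0.53 for SMC4. Without C3 replicate 3 they were 0.54, 0.53, 0.29 and 0.37. All 4 still had an adjusted p below 0.05 in edgeR in either case.

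Transcripts of the genes that rose were longer in the median. The median length of the canonical transcript was 8541 bases for the 7 genes that rose, 2371 bases for the 9 that fell and 3473 bases for the 29 that did not pass, beside 3083 bases for all genes with a value. MKI67, CENPE, CENPF, ASPM and CIT were the 5 with transcripts over 8000 bases, of which 4 rose, with a median log2 fold change of 0.42. Among all 1190 genes of that length, 22.0% were higher and 4.12% lower, with a median of 0.09. Above 2000 and up to 4000 bases 1 of 19 mitosis genes rose and 7 fell, with a median of -0.12, while of all 5155 genes of that length 10.1% were higher and 10.3% lower, with a median of -0.02. The shortest transcripts, up to 2000 bases, did not extend this fall, with none of 8 genes higher, 1 lower and a median of -0.02, beside 6.09% higher, 10.4% lower and a median of -0.04 for all 4435 genes. Above 4000 and up to 6000 bases 2 of 11 rose and 1 fell, near the 13.0% higher and 6.86% lower of all 2902 genes, and neither of the 2 genes between 6000 and 8000 bases passed. Across the 45 genes the log2 fold change had a Pearson correlation of 0.539 and a Spearman correlation of 0.467 with log2 transcript length, and across 15018 genes 0.111 and 0.152. The points of these correlations share the same 6 libraries, and genes are not independent replicates.

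**Figure D4:**
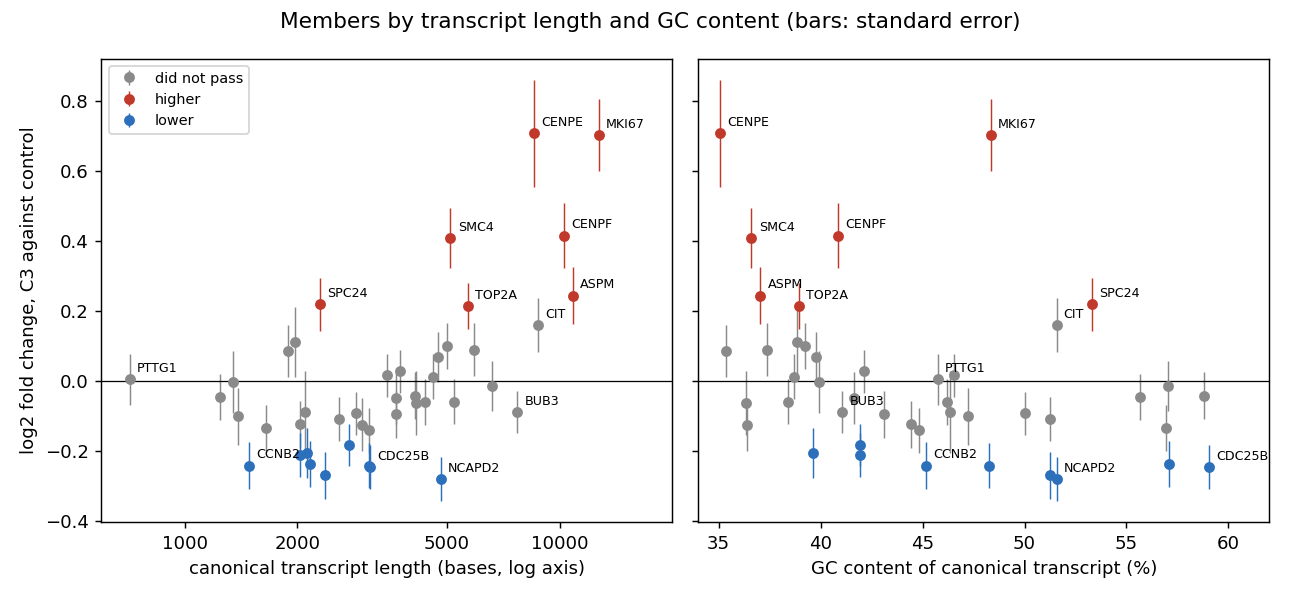
Log2 fold change (C3 against control, bars are the SE) against canonical transcript length on a log axis and against GC content, for 44 genes without PRC1. Of the 5 genes over 8000 bases, 4 rose, and 8 of the 9 that fell had transcripts of at most 4000 bases.

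The same lean was seen in the libraries. The median deviation of all genes with transcripts over 8000 bases was 0.01, 0.02 and -0.03 in control and 0.03, 0.12 and 0.12 in C3 replicates 1, 2 and 3, so that C3 replicate 1 stood apart here too. GC content had a Pearson correlation of -0.317 with the log2 fold change over the 45 genes and 0.0451 over all genes. With counts corrected for both length and GC content, an alternative added after the data were seen, 7 of the 45 were higher and 9 lower. Of all 15018 genes, 2083 were then higher and 2080 lower, against 1658 and 1323 of 15078 without the correction. Under the gates of the study 3 in place of 4 were higher, since CENPF was then below 1.3-fold. The log2 fold changes were then 0.56 for MKI67, 0.66 for CENPE, 0.34 for CENPF, 0.41 for SMC4, 0.22 for TOP2A, 0.27 for SPC24 and 0.18 for ASPM, all with an adjusted p below 0.05. With a correction for length alone ASPM (0.14, adjusted p = 0.20) and NDC80 (-0.17, adjusted p = 0.093) no longer passed.

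Promoters of mitosis genes often carry a cell cycle homology region (CHR), through which the DREAM and MMB-FOXM1 complexes act, and CCAAT boxes bound by NF-Y. The 250 bases before the start of each gene, from RefSeq on GRCh38.p14, were searched on both strands for TTTGAA or TTCGAA (CHR) and CCAAT. An entry was found for 39 of the 45 genes, and not for AURKA, BUB3, TTK, BIRC5, TPX2 and RACGAP1. A CHR was present in 23 of the 39 (59.0%) and in 14.3% of all 35116 promoters. CCAAT was present in 28 (71.8%), and in 32.0% of all promoters. Both stood together in 19 (48.7%), against 5.05% of all promoters. By direction of change the letters were spread across groups. A CHR was found in 4 of the 7 genes that rose, 4 of the 9 that fell and 15 of the 23 that did not pass, and CCAAT in 5, 7 and 16. These matches are descriptions of sequence and not of binding.

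Promoters are printed for MKI67 and CENPE, which had the largest rises, and for CCNB2, PLK1 and CDCA8, which fell, to show these letters in place in genes of either direction. Each line gives the 150 bases before the RefSeq start of the gene, 5′ to 3′ on the strand of the gene, with capitals for the CHR and for CCAAT or its complement ATTGG. The regions lie in the proximal promoter at chr10:128126424-128126573 (MKI67, minus strand), chr4:103198344-103198493 (CENPE, minus strand), chr15:59104996-59105145 (CCNB2, plus strand), chr16:23678739-23678888 (PLK1, plus strand) and chr1:37692366-37692515 (CDCA8, plus strand) of GRCh38.p14. In GENCODE the start of MKI67 is the same, those of CENPE, CCNB2 and CDCA8 fall inside the regions and that of PLK1 lies upstream, so that these regions are partly or wholly within the annotated gene.
MKI67: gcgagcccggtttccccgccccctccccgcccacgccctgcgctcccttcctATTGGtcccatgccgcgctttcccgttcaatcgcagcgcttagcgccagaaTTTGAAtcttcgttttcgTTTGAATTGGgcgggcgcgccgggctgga
CENPE: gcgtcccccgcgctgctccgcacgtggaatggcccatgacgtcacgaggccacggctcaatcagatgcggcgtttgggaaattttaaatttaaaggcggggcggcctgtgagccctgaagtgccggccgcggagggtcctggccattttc
CCNB2: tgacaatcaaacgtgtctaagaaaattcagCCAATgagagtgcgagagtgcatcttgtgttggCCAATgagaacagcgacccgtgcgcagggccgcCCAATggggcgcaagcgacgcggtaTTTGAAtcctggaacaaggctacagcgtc
PLK1: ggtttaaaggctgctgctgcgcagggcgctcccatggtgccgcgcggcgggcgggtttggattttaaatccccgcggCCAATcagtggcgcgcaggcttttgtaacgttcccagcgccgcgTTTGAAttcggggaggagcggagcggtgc
CDCA8: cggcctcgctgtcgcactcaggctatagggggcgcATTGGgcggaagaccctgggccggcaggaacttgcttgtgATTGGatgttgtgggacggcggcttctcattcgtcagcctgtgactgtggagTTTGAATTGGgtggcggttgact
MKI67 holds 2 CHR and 2 ATTGG matches in this stretch, and in its match nearest to the start, as in that of CDCA8, the 2 motifs share a base. CCNB2 has 3 CCAAT boxes upstream of 1 CHR, and PLK1 has 1 of each in that order. Neither motif was found in the 150 bases of CENPE.

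Levels of the mitosis genes spanned a wide range. On a per-length scale, CPM per kilobase of merged exons, the most abundant mitosis genes in control cells were CDC20 (91.5), CCNB1 (81.0), AURKB (78.7) and PLK1 (78.4). The least abundant were CIT (1.21), CENPE (0.855) and PRC1 (0.111). PRC1 shares exon bases with other genes and may have lost reads to them, so its level and rank are uncertain. Against all tested genes with a length, 41 of the 45 were above the median level. Of the genes that rose, TOP2A was at 55.5 and CENPF, MKI67 and ASPM at 5.05, 4.72 and 3.56, and of those that fell the levels ran from 14.9 (NDC80) to 81.0 (CCNB1).

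Other genes of the same pathways were read from 7 lists chosen by function. Of their 185 genes 183 were tested, and 20 were higher (10.9%, against 11.0% of all genes) and 19 lower (10.4%, against 8.77%) at an adjusted p below 0.05, with a median log2 fold change of -0.04. These shares were near those of all genes. They also moved with single libraries, from 9 higher and 7 lower without C3 replicate 3 to 32 higher and 24 lower without C3 replicate 1, and the median was -0.013 without control replicate 3. With library size alone as scaling 29 were higher and 7 lower, with a median of 0.037. DESeq2 called 12 higher and 18 lower.

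Subunits and regulators of the anaphase-promoting complex fell in 6 of 17 cases (35.3%, against 8.77% of all genes) and rose in none (against 11.0%). Their median was -0.19. Among them ANAPC13 went from 790 ± 57.8 to 627 ± 15.2 normalised counts (mean ± SD, n = 3 libraries each; log2 fold change -0.33, adjusted p = 0.0025 in edgeR), and ANAPC7 had a log2 fold change of -0.31 (adjusted p = 0.0044). The 6 became 2 without control replicate 2, 2 without C3 replicate 2 and 3 without C3 replicate 3. With library size alone as scaling 4 were lower, with a median of -0.11. Of the other cytokinesis genes 6 of 23 rose (26.1%, against 11.0% of all genes) and none fell (against 8.77%), with a median of 0.07. They included MYH10, a non-muscle myosin of the contractile ring, from 5735 ± 357 to 7237 ± 235 counts (log2 fold change 0.34, adjusted p = 0.00048), and MYH9, another non-muscle myosin heavy chain (0.36, adjusted p = 0.0016). Without C3 replicate 2 only 3 of this list rose, and without C3 replicate 1 there were 2 that fell. With library size alone as scaling 9 of this list rose, with a median of 0.145. At an unadjusted p below 0.05 in edgeR, where 16.8% of all genes were higher and 15.3% lower, 9 genes of the first list were lower and none higher, and 8 of the second were higher and 1 lower.

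Further kinetochore and checkpoint genes were 3 of 34 higher (8.82%, against 11.0% of all genes) and 3 lower (8.82%, against 8.77%). The scaffold KNL1 and the cohesin protector SGO2 were higher, each with a log2 fold change of 0.31 (adjusted p = 0.015 and 0.027), and CENPM and the MIS12 complex subunit PMF1 were lower, each at -0.46 (adjusted p = 0.00052 and 0.0043). None of this list was higher without control replicate 1 or 2 or C3 replicate 2 or 3, and 5 were without C3 replicate 1. DESeq2 called 1 of them higher and 3 lower. Cohesin and other condensin genes were 3 of 17 higher (17.6%, against 11.0% of all genes) and 4 lower (23.5%, against 8.77%). ESCO1, which acetylates cohesin, and the loader NIPBL had log2 fold changes of 0.48 and 0.32, and the condensin II subunit NCAPH2 and the loader MAU2 both had -0.26. The 4 became 1 without control replicate 1 or C3 replicate 3 and 2 without control replicate 2 or 3 or C3 replicate 2. With library size alone as scaling 4 of this list were higher and none lower. Spindle and centrosome genes were 5 of 44 higher (11.4%, against 11.0% of all genes) and 3 lower (6.82%, against 8.77%). CEP152 (0.58) and CENPJ (0.45), both of centriole duplication, led the higher genes, and GTSE1 (-0.27) and TUBGCP2 (-0.24) were among the lower. Without C3 replicate 1 there were 10 higher, without any other library between 1 and 3, and without control replicate 2 or C3 replicate 3 none was lower (1 without C3 replicate 2). With library size alone as scaling 7 of this list were higher and none lower, and DESeq2 called 2 higher and 3 lower.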

How the data were processed

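Meg-01 RNA was sequenced in 6 libraries, 3 control and 3 C3. The submitters' processing notes name fastp, STAR 2.6.1d, featureCounts 1.5.0-p3 and DESeq2 with GRCh38 (hg38). The values deposited for each gene, whole numbers, were taken to be raw counts with no normalization. Strand setting and annotation release were not given in the sources used here. Genes that share bases may hold each other's reads or lose their own.

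A gene was kept when 3 or more libraries had 10 counts or more (15078 of 58735 rows, 16159449 to 22821722 counts per library). After TMM scaling the groups were compared by quasi-likelihood in edgeR 4.0.16 under R 4.3.3, with no replicate block, and p-values were adjusted over all genes tested by Benjamini-Hochberg. The common coefficient of variation between libraries was 6.21%. Normalised counts were scaled to the mean effective library size. A call is an adjusted p below 0.05 unless the study's gates (0.01 and 1.3-fold) are named. An exact two-sided permutation test of single genes cannot go below 0.1 with 3 against 3 libraries, and its values are not given.

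The rule for the 45 genes uses no measured value, but that set and the lists were proposed with earlier results of these data known. Values per library are given for the 3 genes with the smallest p-value in each role, for the largest change in each role, and for CDK1, CCNB1, PLK1, AURKB, ECT2, ANLN and MKI67. Of each list up to 2 genes per direction with a mean normalised count of at least 50 are named, except 1 gene that is not reported here. Gene models, lengths and overlaps came from GENCODE 44 (58207 rows matched). Alternatives were DESeq2 1.42.0, limma-voom (limma 3.58.1), library size alone, RLE factors, the replicate number as a block, a minimum mean count of 50, no count filter, other thresholds and each library left out. Corrections for length and GC content were added after the data were seen. The fits were tested on simulated data with a log2 fold change of 1, which is larger than any among the 45 genes. Recovery of smaller changes was not tested.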

Additional observations from a re-analysis of the deposited data

How the results depend on the processing

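All 16 called genes kept their direction under each of 16 alternatives, and 6 of them (MKI67, CENPE, CENPF, SMC4, CDC25B and NCAPD2) were called under each. With library size alone as scaling, which moved the median of all genes from 0.0021 to 0.076, 5 of the 45 genes were lower and their median log2 fold change was 0.025. Of all 15078 genes, 609 were then lower, against 1323 with TMM scaling. The median of the 45 genes less that of all genes was -0.051 under both scalings. Leaving out 1 library at a time gave 4 to 8 genes higher, 2 to 9 lower, 1 to 4 higher under the gates of the study and medians from -0.055 to -0.028. The fewest calls came without C3 replicate 3 (4 higher and 2 lower, 1 under the gates). Of all 14701 genes tested there, 1053 were higher and 591 lower. Without control replicate 2, 4 were higher and 5 lower, beside 1175 and 701 of all 14953 genes. Without control replicate 3 or C3 replicate 2, 5 were lower, and without control replicate 1 or 3 the gates left 2. Of all genes, 1107 of 14970 were lower without control replicate 3 and 802 of 14771 without C3 replicate 2. At an adjusted p below 0.01 in edgeR, 4 were higher and 4 lower. The share of all genes at that threshold is not given, so these 2 counts have no baseline here. Beyond the smaller number of libraries, the cause was not tested. Same-numbered control and C3 libraries had correlations of 0.133, -0.0781 and 0.0899 over 11851 genes, and those with different numbers ran from -0.196 to 0.156. These values cannot settle whether the numbers pair the libraries. A replicate block gave 7 higher, 9 lower and a median of -0.054, beside 1852 higher and 1550 lower of all 15078 genes. DESeq2 no longer called NDC80, SPC24 and ASPM. For genes with few counts, such as PRC1, the number of reads limits what can be detected. Why PRC1 had few reads was not tested.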

Other observations

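Regulators of mitotic transcription were 1 of 25 higher and 3 lower at an adjusted p below 0.05 in edgeR, where 11.0% of all genes were higher and 8.77% lower. CDKN1A, which encodes the cyclin-dependent kinase inhibitor p21, rose from 764 ± 13.9 to 1102 ± 82.5 normalised counts (mean ± SD, n = 3 libraries each; log2 fold change 0.53, SE 0.072, adjusted p = 8.2e-06 in edgeR). E2F7, a repressor of the E2F family, had a log2 fold change of -0.44 (adjusted p = 0.024). The median of this list was -0.07, beside 0.0021 for all genes. Only 1 was lower without control replicate 1 or C3 replicate 3, and 2 were higher without C3 replicate 1. With library size alone as scaling 2 were higher and 1 lower, with a median of 0.0042.

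S phase genes were 1 of 32 higher (3.12%, against 11.0% of all genes) and 3 lower (9.38%, against 8.77%), with a median of -0.06. Without C3 replicate 1, 2 were higher and 7 lower, and without C3 replicate 3 only 1 was lower. The median was -0.082 without C3 replicate 1 and -0.016 without C3 replicate 2, and with library size alone as scaling 4 were higher and none lower, with a median of 0.019. The replication initiation factor MCM10 was at 0.30 (adjusted p = 0.0021), and RRM1 and RRM2, the subunits of ribonucleotide reductase, were at -0.22 (adjusted p = 0.010) and -0.24 (adjusted p = 0.012). Other regulators of mitotic entry and exit were 2 of 23 higher (8.7%, against 11.0% of all genes) and none lower (against 8.77%). The 2 were CDC14B (0.61, adjusted p = 0.00023 in edgeR) and MASTL (0.22, adjusted p = 0.030). At an unadjusted p below 0.05 in edgeR 3 were higher and 1 lower, where 16.8% of all genes were higher and 15.3% lower. Without control replicate 1 or 2 or C3 replicate 2 or 3 only 1 of this list was called higher, and DESeq2 also called only 1 higher.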
